A study of Mus musculus with 16 samples.

Results

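The 7 transcription factor genes described here, Ptf1a, Rbpjl, Bhlha15, Nr5a2, Gata4, Gata6 and Xbp1, were chosen by name, as the regulators that build the acinar cell of the pancreas and keep its secretory program, out of 24411 gene symbols in the raw count table. All 7 were also listed in the normalized table and all 7 passed the filter on low counts. The data were polyA RNA-seq of whole pancreas from 16 male mice killed at 12 weeks of age: 5 wild-type C57BL6/J mice (WT) and 7 leptin-deficient, obese Lep(ob/ob) mice (OB), both given control water, and 4 Lep(ob/ob) mice (CCKRi) whose drinking water carried a blocker of the cholecystokinin receptor for the last 6 weeks. Of these last 4 mice, 69 and 72 drank proglumide at 0.1 mg/mL, and 74 and 76 drank lorglumide at 0.05 mg/mL. The sources differ on the origin of the WT mice: the sample labels have them bred in house and the study's methods have them purchased, as the Lep(ob/ob) mice were. Where they were bred in house, genotype and origin cannot be told apart. The labels gave 2 batches. Batch A held WT mice 5489, 5492 and 5494 and OB mice 441, 472, 417 and 447, whereas batch B held WT mice 58 and 59, OB mice 461, 463 and 464, and all 4 CCKRi mice.

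In the adult pancreas, Ptf1a binds DNA in a complex with an E protein and Rbpjl, an acinar form of the Notch mediator Rbpj, and this complex drives the genes of the digestive enzymes. Nr5a2, a nuclear receptor, cooperates with it, and Bhlha15 (Mist1) and Xbp1 equip the cell for secretion: Bhlha15 shapes granules and their polarity, and Xbp1 drives the genes that expand the endoplasmic reticulum once its mRNA has been spliced by Ern1. Gata4 and Gata6 are zinc finger factors needed as the pancreas forms, and Gata6 is also known for holding adult acinar identity. The split of Xbp1 mRNA into its spliced and unspliced forms cannot be read from counts per gene.

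The promoters of the factors are shown because several of them are known to bind their own or each other's regulatory DNA. RefSeq (GRCm38.p6) gave 6 entries for 5 of the 7 genes, each of 250 bases before the start and 50 after it. Printed are the bases before the start, up to the first exon base in GENCODE, 5′ to 3′, with capitals for matches on either strand to an E-box (CANNTG, the site of Ptf1a, Bhlha15 and their E protein partners), a TC-box (TTTCCC, the site of Rbpjl), a GATA core (GATAA), an Nr5a2 core (CAAGGNCA) or an Xbp1 core (ACGTGG). The windows are chr2:19445413-19445662 (plus strand) for Ptf1a, chr2:164402944-164403140 (plus strand) for Rbpjl, chr5:144190036-144190285 (plus strand) for Bhlha15 and chr11:5520391-5520640 (plus strand) for Xbp1.

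Ptf1a: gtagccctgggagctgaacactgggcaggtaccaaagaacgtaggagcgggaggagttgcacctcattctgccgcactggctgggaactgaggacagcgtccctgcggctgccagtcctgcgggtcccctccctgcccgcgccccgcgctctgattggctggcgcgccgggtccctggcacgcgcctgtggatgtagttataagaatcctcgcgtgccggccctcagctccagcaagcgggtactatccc
Rbpjl: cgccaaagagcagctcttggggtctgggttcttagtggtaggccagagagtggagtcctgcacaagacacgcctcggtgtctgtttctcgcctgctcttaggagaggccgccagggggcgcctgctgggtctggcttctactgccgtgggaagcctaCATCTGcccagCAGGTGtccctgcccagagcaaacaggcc
Bhlha15: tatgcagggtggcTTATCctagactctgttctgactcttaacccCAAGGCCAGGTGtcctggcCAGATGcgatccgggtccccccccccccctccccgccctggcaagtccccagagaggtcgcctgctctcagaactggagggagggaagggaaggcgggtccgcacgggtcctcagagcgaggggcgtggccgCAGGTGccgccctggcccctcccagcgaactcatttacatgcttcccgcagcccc
Xbp1: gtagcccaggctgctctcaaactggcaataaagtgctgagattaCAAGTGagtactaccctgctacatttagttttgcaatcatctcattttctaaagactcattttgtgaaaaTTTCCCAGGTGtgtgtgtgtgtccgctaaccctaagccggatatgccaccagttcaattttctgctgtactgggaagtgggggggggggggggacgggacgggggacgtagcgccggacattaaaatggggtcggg

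None of the 5 motifs matched in the 300 bases of Ptf1a. Rbpjl held 2 E-boxes, beginning at -93 and -82 from the start, and 2 GATA cores at -30 and -14 that lie beyond the printed bases. Bhlha15 held 3 E-boxes at -200, -187 and -55, 1 GATA core at -237 and 2 Nr5a2 cores at -206 and 23, the first of which runs into an E-box. In Xbp1, 2 E-boxes lay at -206 and -131, and the only TC-box, at -136, ran into the latter. Nr5a2 had 2 starts, one with 2 E-boxes, 3 GATA cores and 1 TC-box and the other with 3 E-boxes, 1 GATA core and 1 TC-box. Among all 32851 promoters of this length, 72.3% held an E-box, 25.3% a TC-box, 25.4% a GATA core, 8.31% an Xbp1 core and 6.71% an Nr5a2 core, so that the 2 Nr5a2 cores of Bhlha15 were the least common kind of match. These matches are letters in a window and say nothing of binding in these mice.

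Libraries were deeper in batch A, at 19191219 to 34452570 counts each, than in batch B, at 9870673 to 15884901 counts each. The tissue was pancreas by its own transcripts: 28 digestive enzyme genes took 62.2% to 68.2% of a library in batch A, against 33.3% to 62.1% for batch B. OB mice 417, 461 and 463 and CCKRi mouse 69 stood apart, with adipocyte scores (mean log2 CPM of 6 markers, CPM being counts scaled to a common library size) of 6.32 to 7.87 against 2.51 to 5.53 in the other 12. All 10 islet markers were measured, and 6 rose in OB mice, beside 5.93% of all genes. The median log2 fold change was 1.93 over the list and -0.02 over all genes. Summed levels of the markers were 2567 to 13140 CPM in OB against 1303 to 1921 CPM in WT mice. In bulk tissue, fewer acinar cells and less RNA per acinar cell cannot be told apart.

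Levels of different genes were compared as CPM per kilobase of merged exons. Merged exons hold those of every annotated transcript, and which transcripts were expressed was not tested. The order below depends on this length. Over all 16 mice, Xbp1 was highest at 107 ± 38.1 (SD, n = 16). Bhlha15 and Rbpjl came next at 50.9 ± 26.9 and 49.5 ± 20.8, a gap well inside their spread. Ptf1a followed at 19.1 ± 11.1, so by this measure the factor that gives the complex its name was at a lower level than its partner Rbpjl. Gata4 at 6.75 ± 3.40 and Nr5a2 at 5.30 ± 1.43 differed by less than the SD of Gata4, and Gata6 was lowest at 1.83 ± 0.295. The group means did not keep one order. In WT mice Bhlha15 (65.2 ± 29.5, n = 5) stood above Rbpjl (49.6 ± 17.4), and in CCKRi mice Rbpjl (69.3 ± 20.1, n = 4) stood above Bhlha15 (28.4 ± 7.18), level with Xbp1 (70.7 ± 14.1). All CCKRi mice were in batch B, so these group means also differ by batch.

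To learn whether obesity alters the acinar regulators, OB mice were compared with WT mice in edgeR with batch in the model. Ptf1a fell, and it was the only one of the 7 to pass the test. In batch A its normalized counts were 1234, 859 and 956 in WT mice and 603, 434, 297 and 636 in OB mice. In batch B they were 579 and 511 in WT mice and 394, 179 and 264 in OB mice. Every OB mouse was below every WT mouse of its batch. The mean was 828 ± 294 (SD, n = 5) in WT and 401 ± 171 (n = 7) in OB mice, and the log2 fold change was -1.03 ± 0.21 (SE; edgeR adjusted p = 0.00561). Thus 1 of 7 factors was lower and 0 of 7 were higher, where 3.14% of the 13660 genes tested were called lower and 5.93% higher, and the median change was -0.36 over the 7 factors and -0.02 over all genes.

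The fall of Ptf1a was of one size in both batches. The log2 fold change was -1.01 in batch A alone (edgeR adjusted p = 0.0249) and -1.01 in batch B alone, where 3 OB against 2 WT mice did not pass (adjusted p = 0.214, with 0.0356% of all genes called lower). An exact two-sided permutation test that regrouped mice within each batch gave p = 0.00857 over 350 regroupings for a mean difference of -1.07 in log2(normalized count + 1). In batch A alone the exact permutation p was 0.0286, the smallest that 35 regroupings allow, and in batch B it was 0.200, where 10 regroupings allow no less than 0.100. Without the 4 mice with the highest adipocyte scores the fall was -0.91 (edgeR adjusted p = 0.000335), and with the enzyme score as a covariate it was -0.91 (adjusted p = 0.000918). An interaction of genotype and batch was called for 0 of the 7 factors and for 0 of 13189 genes (0%), with edgeR adjusted p of 0.582 to 0.983 for the factors. Ptf1a lies at chr2:19445663-19447501 (mm10, plus strand), and the antisense gene Ptf1aos covers 40.4% of its exon bases. Ptf1aos itself had at most 6 counts in any mouse, against at least 234 for Ptf1a.

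**Figure D1:**
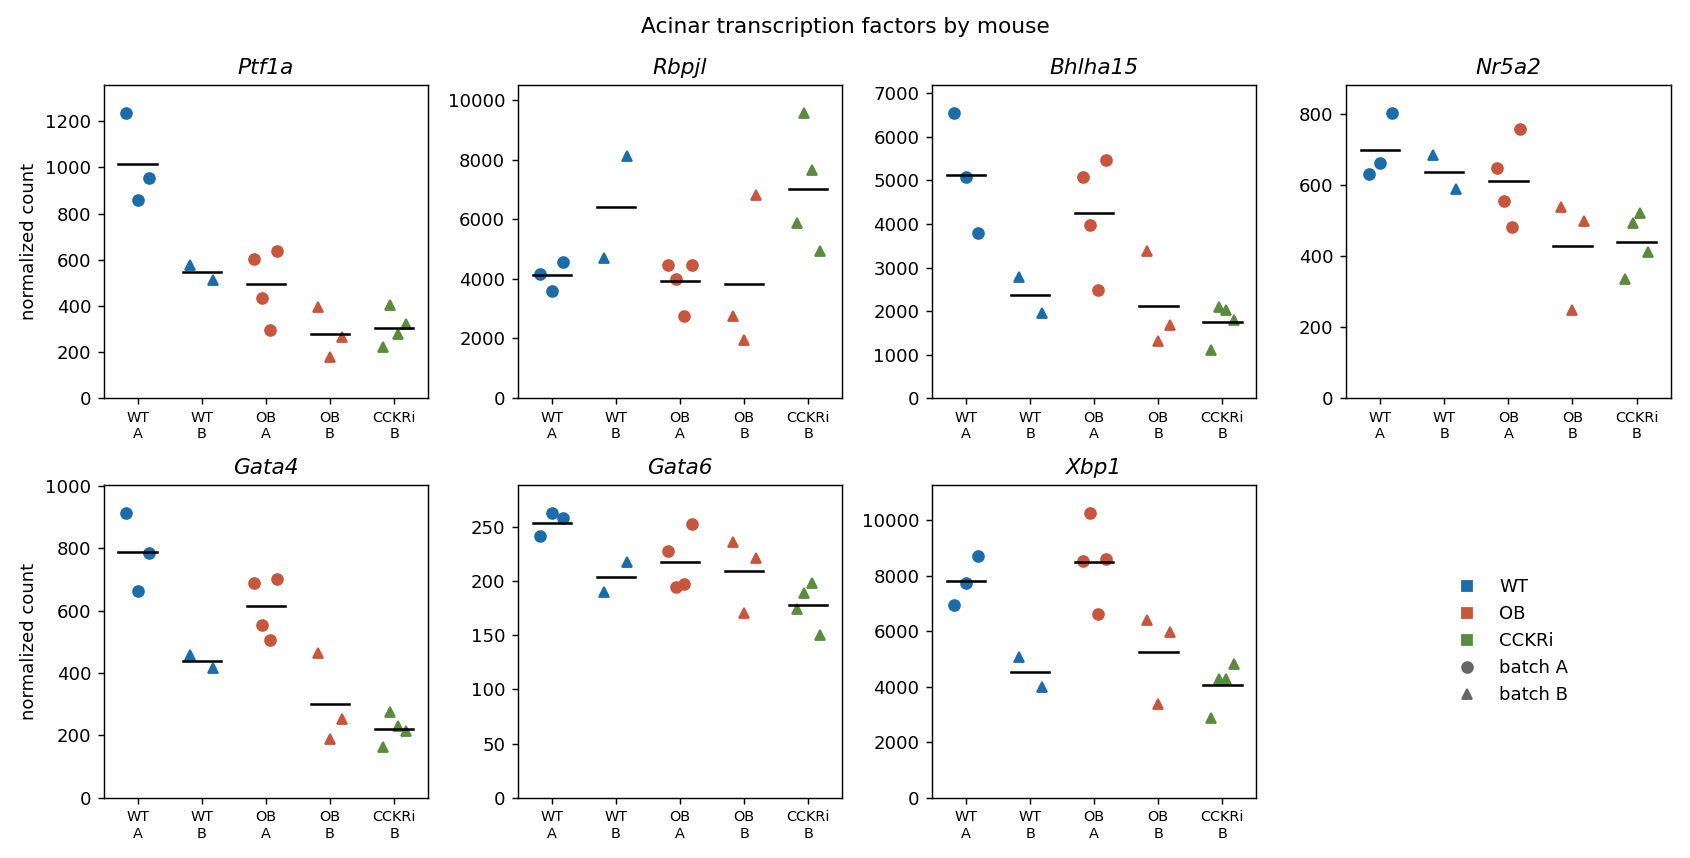
Normalized counts (vertical axis) of the 7 factors in each mouse, by group and batch, with batch A as circles, batch B as triangles and a line at each mean. Ptf1a of OB mice lies below that of WT mice in both batches, at 297 to 636 against 859 to 1234 in batch A and at 179 to 394 against 511 to 579 in batch B.

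Rbpjl, the partner of Ptf1a, did not pass the test. Its normalized counts were 4178, 3588 and 4582 in WT mice and 4485, 4007, 2765 and 4478 in OB mice of batch A. In batch B they were 4713 and 8127 in WT mice and 2755, 1936 and 6821 in OB mice. The genotypes overlapped in both batches, and the log2 fold change was -0.36 ± 0.28 (edgeR adjusted p = 0.479). It was -0.02 in batch A, -0.76 in batch B and 0.09 without the 4 mice with the highest adipocyte scores, so no direction could be given. At chr2:164403141-164415448 (plus strand), 2.60% of the exon bases of Rbpjl lie opposite Matn4, a matrix gene with at most 215 counts in any mouse.

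Nr5a2 (chr1:136842571-136960448, minus strand) and Gata4 (chr14:63198922-63271692, minus strand) had lower means in OB mice without passing the test. Nr5a2 measured 675 ± 80.0 (n = 5) in WT and 533 ± 159 (n = 7) in OB mice, a log2 fold change of -0.37 ± 0.19 (edgeR adjusted p = 0.243). In batch B its OB values, 247 to 538, stayed below the WT values of 589 and 686. The exact two-sided permutation p of Nr5a2 there was 0.3, where 10 regroupings allow no less than 0.1. In batch A the genotypes overlapped. Gata4 measured 647 ± 211 in WT and 480 ± 199 in OB mice (log2 fold change -0.45 ± 0.19, edgeR adjusted p = 0.154) and overlapped in both batches. When the islet score was added to the model, 13.3% of all genes were called lower, and both passed, Nr5a2 at -0.74 (edgeR adjusted p = 0.0219, with 0.0219 to 0.633 over its alternatives) and Gata4 at -0.69 (adjusted p = 0.0461, with 0.0359 to 0.446). Gata4 also passed without OB mouse 461, at -0.60 (edgeR adjusted p = 0.0359). The part of islet RNA in these values was not tested otherwise.

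Bhlha15, Gata6 and Xbp1 gave the smallest differences. Bhlha15 (chr5:144190286-144194441, plus strand) ranged from 1962 to 6542 in WT and from 1302 to 5467 in OB mice, with a log2 fold change of -0.24 ± 0.25 (edgeR adjusted p = 0.615). Gata6 (chr18:11052064-11085635, plus strand) varied least over all 16 mice (coefficient of variation 15.8%), at 234 ± 30.2 in WT and 214 ± 28.2 in OB mice (-0.13 ± 0.12, adjusted p = 0.539). Its exons share 93 bases with 1010001N08Rik on the opposite strand, which reached 181 counts where Gata6 had 117 to 309. Xbp1 (chr11:5520659-5525893, plus strand) was the only factor with a positive log2 fold change, 0.15 ± 0.18 (edgeR adjusted p = 0.670), and that sign turned with the islet score in the model (-0.22, adjusted p = 0.462). In WT mice the batch B values of all 3 lay below those of batch A. Bhlha15 stood at 3782 to 6542 in batch A and at 1962 and 2780 in batch B, and Xbp1 stood at 6944 to 8703 and at 3976 and 5065, whereas Gata6 stood at 241 to 262 and at 190 and 217.

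**Figure D2:**
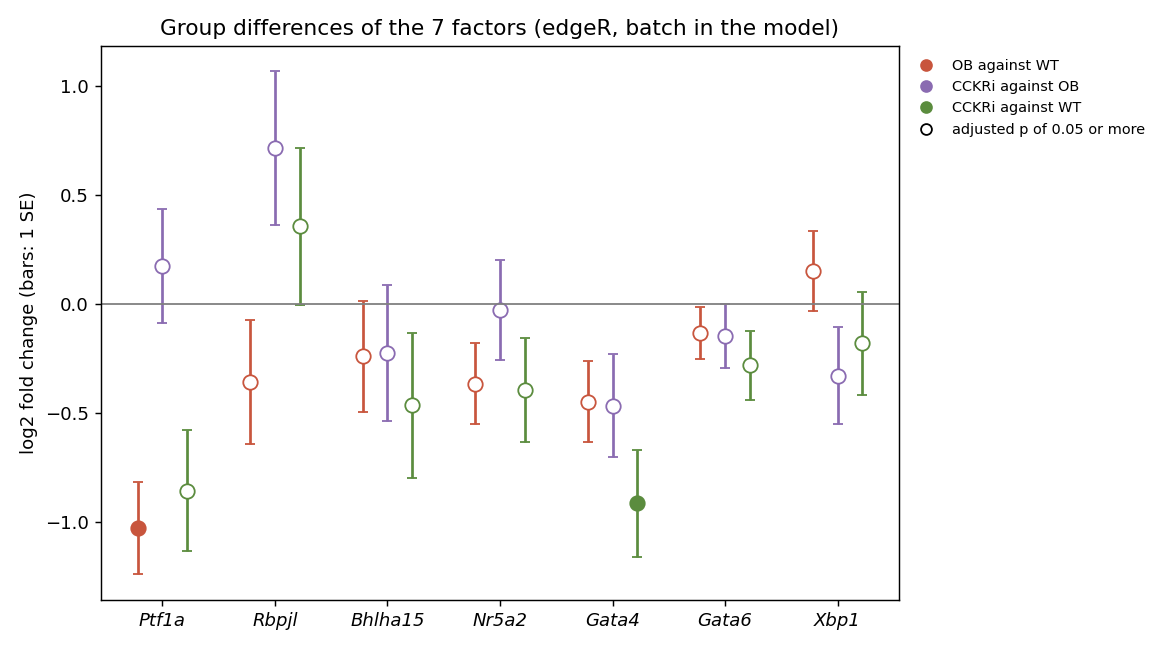
Log2 fold change (vertical axis, bars of 1 SE) of each factor in the 3 comparisons of groups from edgeR with batch in the model, with filled points where the adjusted p was under 0.05. The filled points are Ptf1a in OB against WT (-1.03) and Gata4 in CCKRi against WT (-0.91).

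The antagonist-treated mice were compared with untreated OB mice to ask whether blocking the cholecystokinin receptor, through which the hormone stimulates enzyme secretion, moves the regulators. Of the 7 factors, 0 were higher and 0 lower by edgeR, 0 had an edgeR unadjusted p under 0.05 in the main fit, and DESeq2 called 0. Some other edgeR fits with all mice gave unadjusted p under 0.05, with no adjusted p past the threshold. The lowest was for Gata4 with no batch covariate (-1.10, edgeR unadjusted p = 0.003855, adjusted p = 0.0530). For Rbpjl the DESeq2 unadjusted p was 0.0418 (adjusted p = 0.299). Over all genes, edgeR called 4 in each direction (0.0293% of the 13660 tested), and DESeq2 called 22 higher and 54 lower of 12773. Ptf1a measured 220, 401, 278 and 319 in CCKRi mice, overlapping the batch B OB values of 394, 179 and 264, with a log2 fold change of 0.17 ± 0.26 (edgeR adjusted p = 0.768). This log2 fold change ran from 0.005 to 0.395 as each mouse was left out, and leaving batch out of the model turned it to -0.38. With the enzyme score as covariate it was 0.49 (edgeR unadjusted p = 0.0296, adjusted p = 0.1375).

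Rbpjl had the largest difference of this comparison. The CCKRi mice measured 5886, 9560, 7655 and 4939, and 2 of the 3 OB mice of batch B measured 2755 and 1936. The third OB mouse, 464, measured 6821 and overlapped the treated mice. The log2 fold change was 0.71 ± 0.35 (edgeR adjusted p = 0.367), with 0.12 without the 4 mice with the highest adipocyte scores and 0.43 to 1.08 as each mouse was left out. The 1.08 was without OB mouse 464 (edgeR unadjusted p = 0.00921, adjusted p = 0.139). With the enzyme score as covariate the log2 fold change was 0.87 (edgeR unadjusted p = 0.0364, adjusted p = 0.151). The exact two-sided permutation test in batch B gave p = 0.143 for a difference of 1.03 in log2(normalized count + 1), where 35 regroupings allow 0.0286.

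For the other factors, the log2 fold changes between CCKRi and OB mice were -0.23 ± 0.31 for Bhlha15, -0.03 ± 0.23 for Nr5a2, -0.47 ± 0.23 for Gata4, -0.15 ± 0.15 for Gata6 and -0.33 ± 0.22 for Xbp1 (edgeR adjusted p of 0.371 to 0.963). Each lay within 2 SEs of 0 in the main fit. Gata4 ran from -0.66 ± 0.21 without OB mouse 463 (edgeR unadjusted p = 0.00560, adjusted p = 0.369) to -0.19 ± 0.22 without OB mouse 461. As each mouse was left out, Gata6 ran from -0.232 to -0.065 and Xbp1 from -0.497 to -0.191. The antagonists were given at different doses and are set side by side. Proglumide mice 69 and 72 measured 163.7 and 275 for Gata4, and lorglumide mice 74 and 76 measured 231 and 215. For Xbp1 the proglumide mice measured 2883 and 4269 and the lorglumide mice 4264 and 4812. Proglumide mouse 69, with the highest adipocyte score of the treated mice, was the lowest of the 4 in Ptf1a, Bhlha15, Nr5a2, Gata4 and Xbp1, and not in Rbpjl or Gata6.

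Against WT mice, treated OB mice had lower Gata4. Its normalized counts were 163.7, 275, 231 and 215 in CCKRi mice. In WT mice they were 459 and 417 in batch B and 913, 664 and 783 in batch A. No CCKRi mouse reached a WT mouse. The log2 fold change with batch in the model was -0.91 ± 0.25 (edgeR adjusted p = 0.0365), which made 1 of 7 factors lower and 0 of 7 higher, beside 1.35% of genes lower and 4.22% higher. The call was lost without any one of WT mice 5489, 5494, 58 and 59 or CCKRi mice 69, 74 and 76 (log2 fold changes of -1.04 to -0.78 over all mice left out), in batch B alone (-0.97, edgeR adjusted p = 0.299), with proglumide mice alone (-0.92, adjusted p = 0.193), with lorglumide mice alone (-0.89, adjusted p = 0.124), and with the enzyme score as covariate (-0.55, adjusted p = 0.145). In the same comparison 6 of 10 islet markers were higher, with a median over the list of 2.29, and the median of the enzyme genes was -0.76. The part of either in the Gata4 level was not tested beyond the covariates.

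Ptf1a had a log2 fold change of -0.86 ± 0.28 against WT that did not pass (edgeR adjusted p = 0.0910, with 0.0174 to 0.365 over alternatives other than leaving out a mouse). It was -0.42 with the enzyme score as covariate (edgeR adjusted p = 0.298). In DESeq2 with batch it passed at -0.87 (DESeq2 adjusted p = 0.0485). In edgeR it passed at -0.66 without the 4 mice with the highest adipocyte scores (adjusted p = 0.0273) and at -1.12 with the islet score (adjusted p = 0.0484). With no batch covariate it passed at -1.44 (edgeR adjusted p = 0.0174). In batch B its CCKRi values, 220 to 401, lay below the WT values of 511 and 579. The exact permutation p in batch B was 0.0667 for both Ptf1a and Gata4, the smallest that 15 regroupings allow. Rbpjl was at 0.36 ± 0.36 and the other 4 factors at -0.46 to -0.18, none past the test (edgeR adjusted p of 0.409 to 0.771). Both comparisons of the treated mice share samples with OB against WT and do not give independent evidence.

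Because Ptf1a and Rbpjl act in one complex, the Rbpjl counts for each Ptf1a count were taken within each mouse, where scaling between libraries cancels. This ratio was chosen after the values were seen and is given without a test. In batch A it was 3.38, 4.18 and 4.79 in WT mice and 7.44, 9.22, 9.32 and 7.04 in OB mice. In batch B it was 8.14 and 15.9 in WT mice, 6.99, 10.8 and 25.9 in OB mice, and 26.7, 23.8, 27.5 and 15.5 in CCKRi mice. The genotypes were apart in batch A and overlapped in batch B. Within batch B, treated mice 69 and 74 lay above every WT and OB mouse, and treated mouse 72 above every one of them but OB 464. Treated mouse 76 lay below WT 59 and OB 464.

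**Figure D3:**
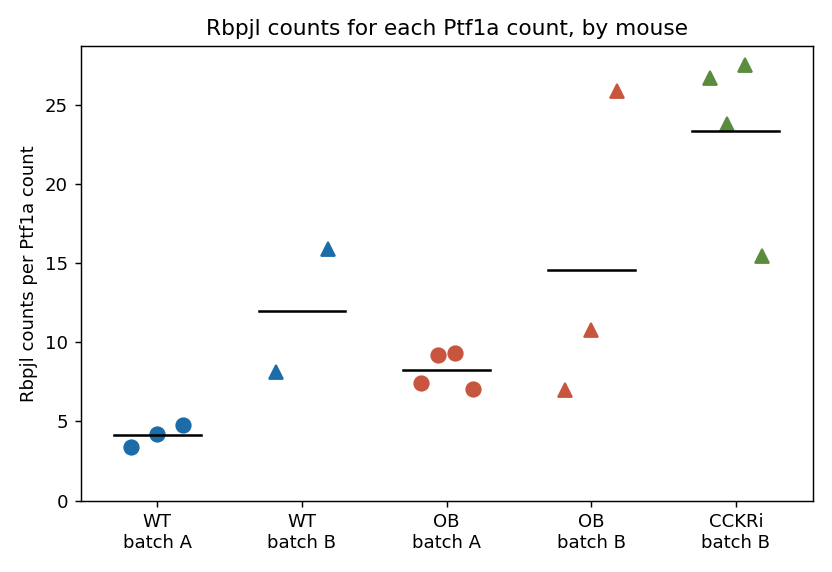
Raw Rbpjl counts for each raw Ptf1a count (vertical axis) in each mouse, by group and batch, with a line at each mean. In batch A the OB mice (7.04 to 9.32) lie above the WT mice (3.38 to 4.79), and in batch B the CCKRi mice reach 15.5 to 27.5.

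The factors were then related to the enzymes they are known to drive. The enzyme score of a mouse was the mean log2 CPM of the 25 digestive enzyme genes that passed the filter, and it ran from 12.3 to 12.9 in batch A and from 10.5 to 12.1 in batch B. With group and batch in the model, 5 of 7 factors rose with the score in edgeR, beside 11.4% of all genes, and 0 of 7 fell, beside 13.9%. The log2 change per unit of score was 0.87 ± 0.25 for Bhlha15 (edgeR adjusted p = 0.0197), 0.77 ± 0.20 for Ptf1a (0.0113), 0.68 ± 0.14 for Xbp1 (0.00438), 0.62 ± 0.19 for Nr5a2 (0.0247) and 0.62 ± 0.19 for Gata4 (0.0280). Gata6, at 0.11 ± 0.15 (adjusted p = 0.634), and Rbpjl, at 0.34 ± 0.37 (0.549), did not pass.

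The number of calls depended on the mice rich in adipocyte transcripts, for the factors and for all genes. Without these 4 mice, 0 of 7 factors rose past the threshold, and 1.99% of all genes did. The slopes of Ptf1a, Bhlha15, Xbp1, Gata4 and Nr5a2 were 0.36, 0.25, 0.31, 0.11 and 0.04, and those of Rbpjl and Gata6 were -0.79 and -0.26. Without OB mouse 463 alone, 1 of 7 rose, beside 7.57% of all genes. Without CCKRi mouse 69 alone, 1 of 7 rose, beside 3.96%, and without OB mouse 447, 3 of 7 rose, beside 9.41%. Mice 463 and 69 had the lowest enzyme scores, 10.95 and 10.49, and the highest adipocyte scores, 7.87 and 7.32. With all mice, all 6 adipocyte markers and all 8 macrophage markers fell as the enzyme score rose, beside 13.9% of all genes. In batch A alone, 0 of 7 factors rose, beside 0.121% of all genes, and every slope was above 0, from 0.39 to 1.84. In batch B alone 4.56% of all genes rose, and of the factors only Xbp1 did (0.69, edgeR adjusted p = 0.0349, with 1.19e-05 to 0.594 over its alternatives).

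**Figure D4:**
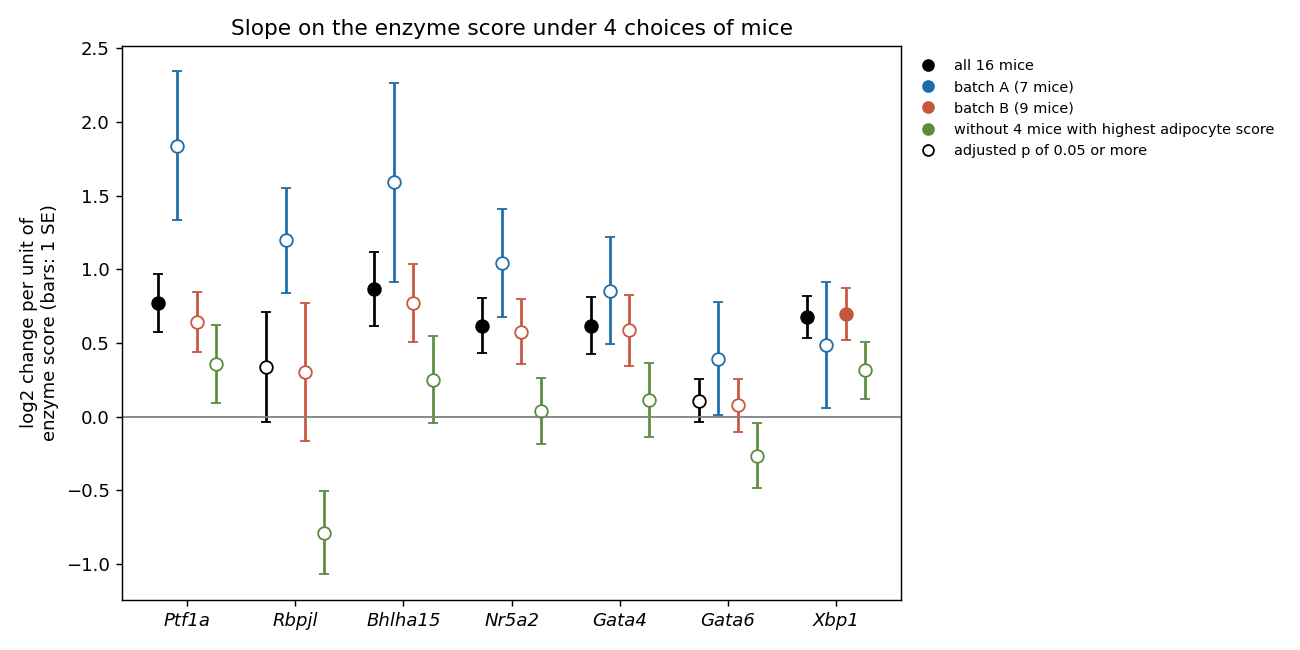
Log2 change of each factor per unit of enzyme score (vertical axis, bars of 1 SE) from edgeR with all 16 mice, with either batch alone, and without the 4 mice with the highest adipocyte scores, with filled points where the adjusted p was under 0.05. With all mice 5 points are filled, and without those 4 mice none are.

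Mouse by mouse and over both batches, Xbp1 had the highest correlation of the 7 with the enzyme score. Unlike the slopes above, the r and rho here and within batches had no group term, so differences between groups are part of them. Of all 13660 genes, 16.04% had r above 0.5 in the same computation and 6.52% had a positive r with an adjusted permutation p under the threshold. After each batch was centred, Pearson's r over 16 mice was 0.80 (permutation p = 0.00109, adjusted over all genes 0.0223) and Spearman's rho was 0.80 (p = 0.00124). It was 0.74 without the 2 mice farthest from the median score. Bhlha15 gave r = 0.72 (permutation p = 0.00188, adjusted 0.0308) and rho = 0.55 (p = 0.0281), with r = 0.58 without those 2 mice. For Gata4, Nr5a2 and Ptf1a, r was 0.74, 0.69 and 0.62 and rho 0.70, 0.65 and 0.56, with permutation p of r of 0.00596, 0.00978 and 0.00499 and of rho of 0.0103, 0.0132 and 0.0224, and the adjusted p of r (0.0604, 0.0816 and 0.0547) missed the threshold. Without the 2 farthest mice these r were 0.56, 0.58 and 0.54. Gata6 gave r = 0.38 (permutation p = 0.172, adjusted 0.411; rho = 0.45, p = 0.0960) and Rbpjl r = 0.06 (p = 0.868, adjusted 0.938; rho = -0.05, p = 0.867). These are 7 of 21 relations to the enzyme score, the others being those within each batch.

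Within batches, with the groups pooled, the values were as follows. In batch A, of 7 mice, Rbpjl had the highest r with the enzyme score, 0.87 (exact permutation p = 0.0161, rho = 0.75 with p = 0.0663), and Xbp1 the lowest, 0.40 (exact p = 0.365, rho = 0.54 with p = 0.236). In batch B, of 9 mice, Xbp1 had the highest, 0.89 (exact p = 0.00144, rho = 0.90 with p = 0.00203), and Rbpjl the lowest, -0.03 (exact p = 0.939, rho = -0.20 with p = 0.613). Adjusted over all genes, no member passed within a batch, the lowest adjusted permutation p being 0.245 in batch A and 0.0538 for Xbp1 in batch B. By rho, the lowest in batch A was Bhlha15 (0.46, exact p = 0.302). Without the 2 mice farthest from the median score of the batch, Rbpjl in batch A had r = 0.44, below Gata4 (0.81), Ptf1a (0.76) and Nr5a2 (0.53), so the order in batch A rested on those mice. Without them Xbp1 turned from 0.40 to -0.42 in batch A, and in batch B, without the 2 mice farthest there, it had r = 0.88. No difference between the batches was tested.

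**Figure D5:**
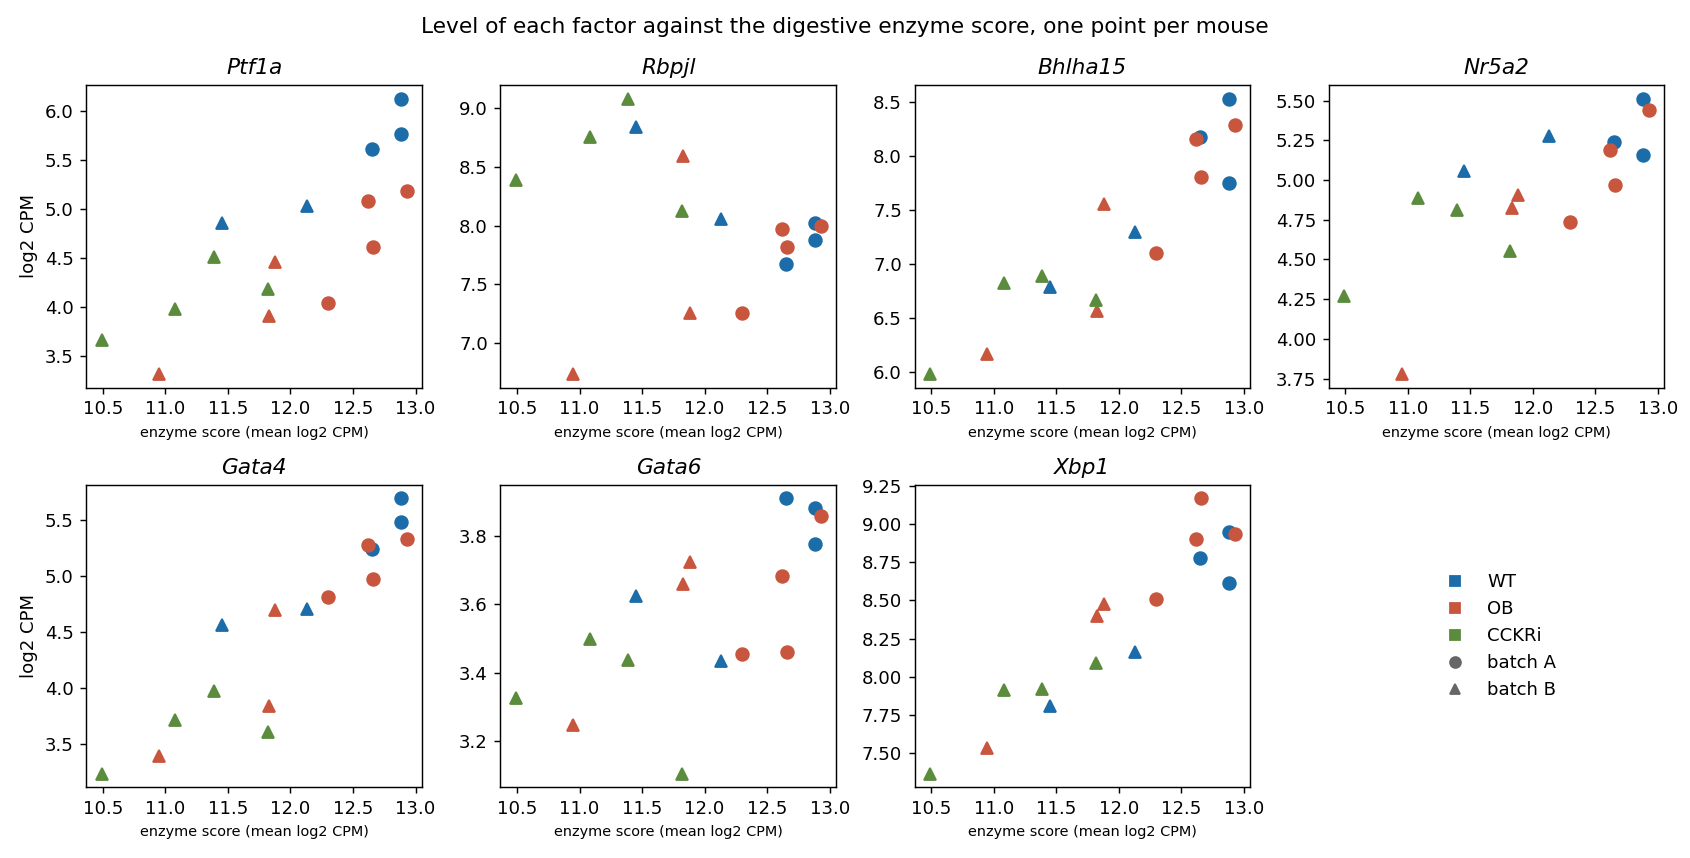
Log2 CPM of each factor (vertical axis) against the enzyme score (horizontal axis, mean log2 CPM of 25 enzyme genes), 1 point per mouse, by group (colour) and batch (shape). Xbp1 climbs along the score within batch B (r = 0.89), whereas Rbpjl does not (r = -0.03).

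Rbpjl and Xbp1 followed different single enzymes in batch B, a difference that was not tested. Over the 9 mice of batch B, Rbpjl had r = 0.83 (rho = 0.68) with Amy2b, an amylase, and -0.49 (rho = -0.58) with Cpa1, carboxypeptidase A1, and -0.58 (rho = -0.60) with Cel, the bile salt-stimulated lipase. Xbp1 had r = 0.45 (rho = 0.13) with Amy2b, 0.83 (rho = 0.83) with Cpa1 and 0.81 (rho = 0.87) with Cel. For Ptf1a the 3 values were 0.72 (rho = 0.70), 0.38 (rho = 0.35) and 0.22 (rho = 0.20). Nr5a2 had the highest r of the 7 factors with Amy2b, 0.89 (rho = 0.75), and 0.34 (rho = 0.33) with Cpa1 and 0.22 (rho = 0.37) with Cel. In batch A the r of Rbpjl were all above 0, at 0.78 with Amy2b, 0.66 with Cpa1 and 0.86 with Cel (rho of 0.54, 0.43 and 0.54), and those of Xbp1 were 0.33, 0.15 and 0.39 (rho of 0.25, 0.11 and 0.14). The r of Ptf1a in batch A were 0.93 with Amy2b, 0.97 with Cpa1 and 0.87 with Cel (rho of 0.93, 0.96 and 0.86). Those of Nr5a2 were 0.84, 0.72 and 0.82 (rho of 0.68, 0.54 and 0.54). These r are descriptions over mice that share a scaling and differ in group, depth and tissue makeup. With Cpa1 in place of the enzyme score, 0 of 7 factors rose in edgeR, beside 4.49% of all genes, and the slope of Rbpjl was -0.29.

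The genes most like each factor across the 16 mice, after centring each batch but not each group, were searched among 10564 genes. Rbpjl moved closest with Ankrd24 (r = 0.99), Abcc10 (0.99) and Col7a1 (0.98), the tightest matches of any factor. Ptf1a moved with Arhgap26 (0.95), Cbfa2t3 (0.93) and Plk2 (0.93), and Nr5a2 with Ttc39a (0.95), Sec14l4 (0.94) and Dsg2 (0.93). Bhlha15 and Gata4 shared their closest gene, Prss8 (r = 0.93 with each), followed by Klhdc10 (0.91) and Sel1l3 (0.90) for Bhlha15 and by Aldh4a1 (0.92) and Txndc11 (0.91) for Gata4. Xbp1 moved with Habp2, Hpn and Slc44a3 (0.93 each), and Gata6 with Zcchc14 (0.87), Ssfa2 (0.85) and Ndst1 (0.85). Among the factors themselves, Ptf1a and Gata4 had the highest r over both batches, 0.829, close to the 0.824 of Bhlha15 and Gata4. Within batches A and B, Ptf1a and Gata4 had r = 0.951 and 0.878. In batch B, Ptf1a with Nr5a2 (0.882) and Bhlha15 with Gata4 (0.880) were slightly higher. Ptf1a and Rbpjl had r = 0.38, with 0.65 in batch A and 0.37 in batch B.

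The targets, partners and products of the factors were described from fixed lists. Of 25 digestive enzyme genes tested, 4 fell and 1 rose in OB mice, beside 3.14% and 5.93% of all genes, with a median log2 fold change of -0.18 against -0.02 over all genes. Ctrc, chymotrypsin C, fell by 1.43, Cela3a, an elastase, by 2.29 and Amy2a5, an amylase, by 1.05, and Prss1, a trypsinogen, rose by 3.72 (edgeR adjusted p of 0.00115 to 0.0146). Trypsinogen, elastase and amylase genes have near-identical copies, so how reads were split between copies is uncertain. Of 10 other secretory granule and membrane genes, 1 fell, beside the same 3.14%, the water channel Aqp8 (-1.42, edgeR adjusted p = 0.00295). In treated mice, 0 enzymes passed against OB, where 0.0293% of all genes passed in each direction, and against WT 3 of 25 were lower and 1 higher, beside 1.35% and 4.22% of all genes, Prss1 at 4.60, Cela3a at -2.51, the phospholipase Pla2g1b at -1.88 and the trypsinogen Try4 at -1.35 (edgeR adjusted p of 0.000967 to 0.0392). Aqp8 (-1.55) and Gp2 (-1.33), the main membrane protein of the granule, were also lower than in WT mice.

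Targets of Xbp1 and Bhlha15 were compared between groups, and most rose with the enzyme score. Of 20 known Xbp1 targets, genes of protein folding and translocation in the endoplasmic reticulum, 1 fell in OB mice, Creld2 (-1.10, edgeR adjusted p = 0.0136). In either comparison of the treated mice 0 passed. Of all genes, 3.14% were lower and 5.93% higher in OB than in WT mice. The shares were 1.35% and 4.22% for CCKRi against WT mice, and 0.0293% in each direction for CCKRi against OB mice. With the enzyme score, 17 of 20 rose, beside 11.4% of all genes, with a median slope of 0.80 over the list, led by Serp1 (1.09), Spcs2 (0.94), Dnajc3 (0.83) and Sdf2l1 (0.95; edgeR adjusted p of 0.000634 to 0.00161). Of 6 known Bhlha15 targets, 0 passed in the 3 comparisons of groups, the smallest p between OB and WT being that of Atp2c2 (-0.57, edgeR adjusted p = 0.0590), and 4 of 6 rose with the score, Gjb1 (0.91), Copz2 (0.72), Rab3d (0.73) and Atp2c2 (0.66; adjusted p of 0.000432 to 0.00977). The median slope over all genes was 0.02. Without the 4 mice with the highest adipocyte scores, an alternative chosen after seeing the data for these lists, 5 of 20 Xbp1 targets and 2 of 6 Bhlha15 targets rose, beside 1.99% of all genes, and the median slopes were 0.70 and 0.63.

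Among 14 partners, inhibitors and inducers of the factors, 0 passed between OB and WT, beside 3.14% of all genes lower and 5.93% higher. The smallest p was that of Nr0b2, the corepressor SHP that binds Nr5a2 (0.59 ± 0.23, edgeR adjusted p = 0.124). Against WT mice, 1 of 14 was lower and 0 were higher in CCKRi mice, beside 1.35% and 4.22% of all genes. This was Zfpm1, a cofactor of GATA proteins (-1.12 ± 0.28, edgeR adjusted p = 0.0211). With the enzyme score, Atf6, a sensor of endoplasmic reticulum stress, rose (0.48) as 1 of 14, and 4 of 14 fell, beside 11.4% and 13.9% of all genes, among them Rbpj (-0.58), the general form that Rbpjl replaces in the Ptf1a complex, Id3 (-0.64), an inhibitor of E proteins, and Zfpm2 (-1.70; adjusted p of 0.0109 to 0.0338 for these 4 genes). Of 13 other pancreas transcription factors, 6 rose and 1 fell with the enzyme score, beside 11.4% and 13.9% of all genes, led by Foxa3 (0.99), Pdx1 (1.11), Klf4 (-0.50) and Foxa2 (0.71). Without the 4 adipocyte-rich mice, 0 partners and 0 of these other factors rose or fell with the score, beside 1.99% and 0.718% of all genes. Between CCKRi and OB mice no list had a member past the threshold, beside 0.0293% of all genes in each direction. The smallest p in each of these lists were those of Pla2g1b (-0.87), Dmbt1 (-1.35), Gjb1 (-0.35), Sec61a1 (-0.41), Zfpm1 (-0.69) and Hhex (0.44; edgeR adjusted p of 0.222 to 0.505).

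Markers of other cells moved with the same scores. Of 10 islet markers, 8 rose with the enzyme score and 0 fell, and of 7 duct markers 2 rose, where 11.4% of all genes rose and 13.9% fell. Of 8 macrophage, 7 fibroblast and 5 mesothelium markers, 8, 5 and 3 fell, and 1 of 6 lymphocyte and 0 of 4 endothelium markers did. Without the 4 adipocyte-rich mice, 1 of the 10 islet markers rose, and no member of the other marker lists passed in either direction. Of all genes, 1.99% rose and 0.718% fell without those mice. Between OB and WT mice, the macrophage, fibroblast, mesothelium, lymphocyte, endothelium and adipocyte lists had no member past the edgeR threshold. Of all genes, 5.93% were higher and 3.14% lower in OB mice. The adipocyte median was 1.65 all the same, and summed adipocyte levels were 81.8 to 1849 CPM in OB against 48.7 to 163.6 CPM in WT mice. The part of these cells in the levels of the 7 factors was not tested beyond the covariates and the mice left out above.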

How the data were processed

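RNA of pulverized whole pancreas was polyA selected and made into strand-specific libraries, which were sequenced in pairs and, per the submitters' processing notes, trimmed with Trim Galore 0.6.7 and cutadapt 3.5 and aligned to mm10 with STAR 2.7.9. The counting tool, its strand setting and its annotation are not given in the sources used here. The authors deposited raw counts per gene symbol, and a second table whose values (unit: signal) are these counts divided by 1 DESeq2 size factor per mouse. The deposited size factors ranged from 0.617 to 1.44, and every gene gave the same factor in its mouse within 1e-06.

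Columns were matched to mice by the names in the labels, and groups and batches were taken from the labels. The 7 genes, the other lists and the tests were chosen with earlier results of these data known. Raw counts of all 16 mice were fitted in edgeR 4.0.16 (R 4.3.3; TMM, filterByExpr, quasi-likelihood test) with group and batch, Benjamini-Hochberg adjusted over 13660 genes, with a threshold of 0.05. TMM factors ran from 0.558 to 2.16. Log2 CPM used a prior count of 2. Each SE of an edgeR value was its absolute log2 change divided by the square root of the F value of its test. Exact permutation tests used log2(normalized count + 1), were two-sided, and regrouped mice within batches. The p of centred correlations came from 100000 permutations within batch, across groups. No label says that mice of a group differed in litter or day, so p-values measure the spread between these mice. Gene positions and exon lengths were from GENCODE vM21 (GRCm38), promoters from RefSeq. Python 3.11.15, numpy 2.4.6, scipy 1.17.1, pandas 2.3.3 and matplotlib 3.10.9 were used. The edgeR procedure was tested on simulated data. These were drawn without a batch effect or mice rich in adipocyte transcripts, so they cannot show how the calls depend on either. DESeq2 1.42.0, another normalization, other filters, other samples, added covariates and each mouse left out were the alternatives.

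Named were all 7 factors in every comparison, of each list at most the 4 passing genes with the smallest p or otherwise the gene with the smallest p, the 3 genes most like each factor (mean log2 CPM of at least 1, unnamed gene models left out), and Cpa1, Cel and Amy2b. Of the passing and smallest-p genes by this rule, those of the marker lists are summarised as counts, and a gene of these lists, with the calls of its lists against WT mice, is not reported here.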

Additional observations from a re-analysis of the deposited data

Results flagged for a closer look

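Over the 7 factors, 21 sets of mice (3 groups for each factor) were examined for a mouse far from the others, and 1 was found. Nr5a2 in OB mouse 463 measured 247 normalized counts, below the other 6 OB mice at 481 to 759, and the gap to the nearest mouse took 0.593 of the range of the group on the log2 scale. At this limit chance marks about 1 group in 20, or 1.05 of 21. Mouse 463 also had the highest adipocyte score (7.87) of the 16 mice and the lowest enzyme score of the OB mice (10.95); the part of either in its Nr5a2 level was not tested.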

How the results depend on the processing

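The number of factors lower in OB than in WT mice stayed at 1 in 10 of 12 alternatives. It was 0 in batch B alone (0.0356% of all genes lower), 3 with the islet score as covariate (13.3%) and 1 to 2 as each mouse was left out. The number lower in CCKRi than in WT mice was 1 in the main fit, beside 1.35% of all genes. It was 2, Ptf1a and Gata4, with DESeq2 (2.15% of all genes lower) and with no batch covariate (5.37%). The same 2 were lower without the 4 mice with the highest adipocyte scores (3.33%) and with the islet score (5.04%). It was 0 in batch B alone (0.0285%), with the enzyme score (3.7%), with proglumide mice alone (0.38%) and with lorglumide mice alone (0.717%). As each mouse was left out it was 0 to 1. No factor was called between CCKRi and OB mice under any of the 13 alternatives or the 11 mice left out. Of all genes, at most 2.41% were called higher and 1.76% lower there, with no batch covariate. The number rising with the enzyme score was 0 with Cpa1 in its place (4.49% of all genes rising), in batch A alone (0.121%) and without those 4 mice (1.99%). It was 1 with the log2 share of counts (4.67%) and in batch B alone (4.56%), and 1 to 5 as each mouse was left out. Log2 fold changes that changed sign, none of them past the threshold in either form, were as follows. For OB against WT, Rbpjl was 0.085 without the 4 mice and Xbp1 -0.225 with the islet score. For CCKRi against OB, Ptf1a was -0.381 with no batch covariate, Bhlha15 was 0.034 without the 4 mice and 0.152 with the enzyme score (-0.400 to 0.122 as each mouse was left out), and Nr5a2 was 0.054 in the groups compared alone, 0.097 in batch B alone, 0.26 with the enzyme score and 0.065 with lorglumide mice alone (-0.256 to 0.089 as each mouse was left out). For CCKRi against WT, Rbpjl was -0.046 with the islet score, and Bhlha15 and Xbp1 were 0.042 and 0.21 with the enzyme score. For the slope on the enzyme score, Rbpjl was -0.287 with Cpa1, -0.288 with the share of counts and -0.789 without the 4 mice (-0.091 to 0.705 as each mouse was left out), and Gata6 was -0.264 without the 4 mice (-0.006 to 0.276). The cause of these changes was not tested. A pseudocount of 0.5 changed no direction and no side of the threshold in the exact tests. No paired analysis was possible because mouse numbers are not shared between groups. Depth was lower in batch B, which holds every treated mouse.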
